A study of Mus musculus with 12 samples.

Results

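Genes of intraflagellar transport (IFT) and the BBSome were taken by name from the gene count table of mouse retina: protein-coding genes whose symbol begins with Ift or Bbs and a digit, together with Ttc8, Mkks, Arl3, Arl6, Arl13b, Rab23, Cep290 and Rpgrip1. The rule gave 30 of the 55487 genes in the table, and all 30 had enough counts to be tested, as did 16233 genes in all. They are 3 subunits of IFT-A, 7 of the IFT-B core, 4 of peripheral IFT-B, 7 BBSome subunits, 3 chaperonin-like BBS proteins, 4 ciliary small GTPases and 2 proteins of the transition zone. The rule uses names and no measured values, and it was set with earlier results of these data known.

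IFT is the movement of protein trains along the microtubules of a cilium: IFT-B complexes with a kinesin motor carry cargo towards the tip, and IFT-A complexes with a dynein motor carry it back. The BBSome is an octameric coat that the small GTPase Arl6 places on membranes and that takes membrane proteins out of cilia along IFT trains. The light-sensitive outer segment of a rod or cone is a modified cilium, joined to the cell body by a narrow connecting cilium that corresponds to the transition zone, and loss of many of these genes is known to cause retinal degeneration in mice and in people.

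The libraries hold polyadenylated RNA from whole retina of 5xFAD mice (labelled strain Tg6799) at 1 month, WT mice (C57BL/6J) at 1 month, 5xFAD mice at 6 months and WT mice at 6 months, with 3 libraries in each of these 4 groups. The 5xFAD mouse carries mutant human transgenes under the neuronal Thy1 promoter and is used as a model of Alzheimer's disease, so the transgenes are driven in neurons and not in all retinal cells. The labels do not say that replicates came from separate animals or how many retinas entered an extraction, so p-values measure only the spread between these libraries, which may be technical. The study asked about transcript and retained-intron differences between the genotypes.

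Depth ran from 10928024 to 19552540 counts per library. Rod photoreceptor markers summed to 66041 to 69815 CPM (counts scaled to a common library total) in 5xFAD and 61680 to 64838 CPM in WT retina at 1 month, and to 66179 to 70468 CPM in 5xFAD and 56388 to 61358 CPM in WT retina at 6 months, so the labelled tissue carried its defining markers. Markers of pigment epithelium and choroid, tissues that border the retina, summed to 79.9 to 91.7 CPM in 5xFAD and 147 to 229 CPM in WT retina at 1 month, with 6 of 12 tested markers lower, and lens markers summed to 6.42 to 74.5 CPM in 5xFAD and 0.525 to 1.42 CPM in WT, with Lim2 at 0 in every library. Markers of motile cilia summed to 42.4 to 49.99 CPM in 5xFAD and 60.9 to 67.5 CPM in WT at 1 month, and Rsph4a and Sntn were at 0 throughout. Cone markers summed to 1232 to 1408 CPM in 5xFAD and 1494 to 1744 CPM in WT at 1 month, and to 1606 to 1759 CPM in 5xFAD and 1303 to 1394 CPM in WT at 6 months. Markers of ciliary body and iris summed to 143 to 154 CPM in 5xFAD and 117 to 140 CPM in WT at 1 month. At 6 months Muller glia markers summed to 3720 to 3929 CPM in 5xFAD and 4136 to 4583 CPM in WT, and bipolar cell markers to 1153 to 1219 CPM in 5xFAD and 1220 to 1428 CPM in WT. The mean transcript length behind a count was 4213 ± 16.7 nt in 5xFAD and 3719 ± 121 nt in WT at 1 month, and 3674 ± 50.2 nt in 5xFAD and 3910 ± 182 nt in WT at 6 months (SD, n = 3 each). Ribosomal RNA took 1.11% and 0.446% of 5xFAD replicates 1 and 2 at 6 months and 0.325% of WT replicate 2 at 1 month, the 3 largest shares among the 12 libraries. The part of these differences in the results below was not tested except where a value is given.

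Rpgrip1, which anchors the ciliary protein RPGR in the connecting cilium, was by far the most abundant of the 30 genes, and the IFT genes lay mostly in the lower part of the order. Per transcript length, Rpgrip1 averaged 1227 TPM (transcript counts over transcript length, scaled to a common total) over the 12 libraries, with a range of 750 to 1786 TPM, and it held 23.4% to 42.8% of the summed TPM of the 30 genes. Arl3, which releases lipid-modified cargo from its carriers inside cilia, followed at 449 TPM (409 to 508), and Arl6, which recruits the BBSome, at 232 TPM (193 to 275). The levels of Rpgrip1 lay above those of Arl3, and those of Arl3 above those of Arl6, without overlap over the 12 libraries. Exons of Rpgrip1 overlap those of Supt16 on the opposite strand, and the preparation did not keep strand. The part of Supt16 reads in the Rpgrip1 level was not tested.

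Below Arl6 every gene overlapped with its neighbour in the order of mean TPM. The BBSome subunits Ttc8, Bbs7, Bbs4, Bbs2 and Bbs5 had mean levels of 176, 162, 135, 135 and 113 TPM. Cep290, a structural protein of the transition zone, averaged 107 TPM and the IFT-B subunit Ift20 averaged 106 TPM. The remaining IFT genes averaged between 27.9 TPM (Ift88) and 69.7 TPM (Ift81). Bbs10, which helps assemble the BBSome, was lowest at 12.7 TPM, after Rab23, a GTPase that restrains Hedgehog signalling, at 15.7 TPM. Of the 29 neighbouring pairs in the whole order, 2 did not overlap: Rpgrip1 with Arl3 and Arl3 with Arl6.

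**Figure D1:**
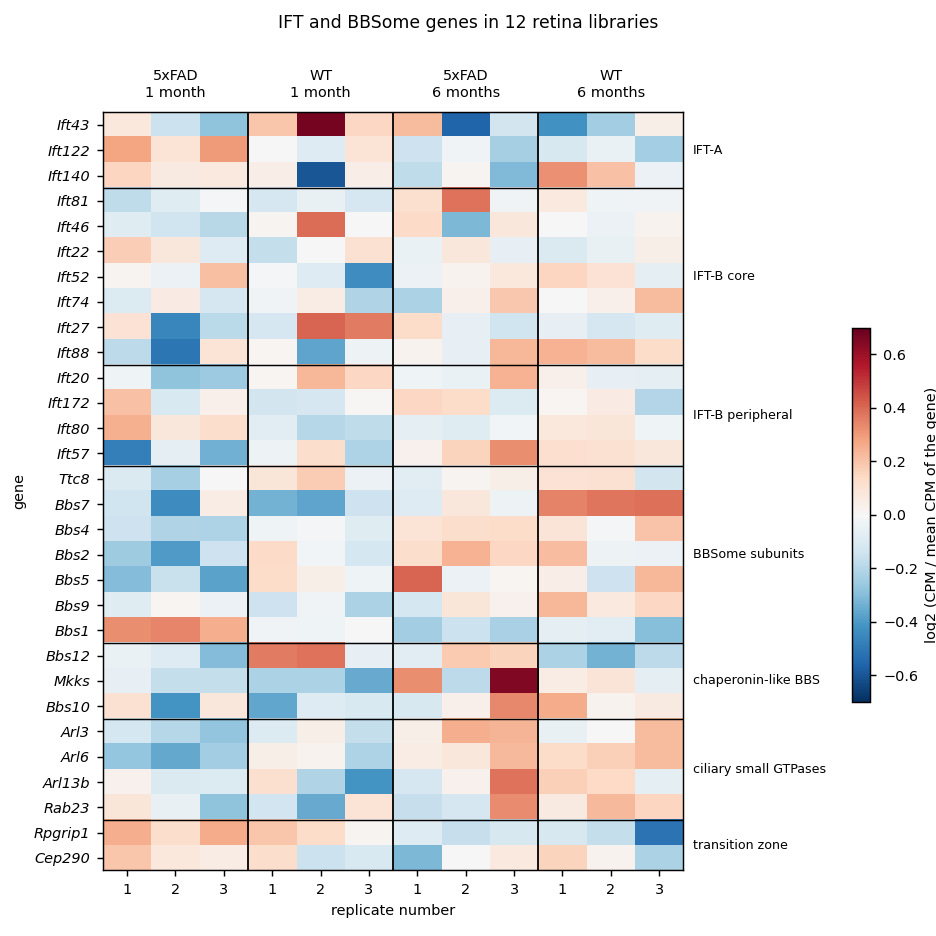
Level of each of the 30 genes (rows, grouped by role) in each of the 12 libraries (columns, by group and replicate number), as log2 of the CPM over the gene's own mean CPM. Most genes stayed near their mean in all groups; Bbs7 was high in the 3 WT libraries at 6 months and Bbs1 was high in the 3 5xFAD libraries at 1 month.

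At 1 month, the BBSome subunit Bbs1 and the peripheral IFT-B subunit Ift80 were higher in 5xFAD than in WT retina, by 25.4% and 23.5%, and the chaperonin-like Bbs12 was lower by a log2 fold change of -0.38. The other 27 genes did not pass the test, among them all 3 IFT-A genes, all 7 IFT-B core genes, all 4 GTPases and both transition zone genes. Called genes made up 3 of 30 (10%), against 19.6% of all genes tested, of which 10.7% were higher and 8.91% lower, so the set held no larger share of called genes than the background. The median log2 fold change of the 30 genes was 0.03, against -0.04 over all genes. Values of 12 of the 30 genes did not overlap between the genotypes, against a background of 37.6%. In such whole-tissue libraries, fewer cells of a type and less RNA per cell cannot be told apart.

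Bbs1 (chromosome 19, 4886878 to 4906628, minus strand, GRCm38) is the BBSome subunit that binds Arl6. Its normalised level was 154, 156 and 147 CPM in 5xFAD replicates 1, 2 and 3, against 121, 121 and 123 CPM in WT. All 3 5xFAD libraries lay above all 3 WT libraries. The log2 fold change was 0.33 ± 0.09 with an adjusted p of 0.0144 (edgeR quasi-likelihood test, Benjamini-Hochberg over all genes; the ± after a log2 fold change is an approximate SE, its size divided by the square root of the F statistic). The call was lost without 5xFAD replicate 1, 5xFAD replicate 2 or WT replicate 2 (adjusted p 0.0502 to 0.0596). It was also lost when each library's dependence on length and GC was fitted and subtracted, which left a log2 fold change of 0.08 (adjusted p 0.552).

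Ift80 (chromosome 3, 68892499 to 69004570, minus strand) is needed for cilium formation and is mutated in human skeletal ciliopathies. It measured 83.7, 74.5 and 76.6 CPM in 5xFAD and 66.6, 61.3 and 62.2 CPM in WT retina at 1 month, again without overlap. The log2 fold change was 0.30 ± 0.10 with an adjusted p of 0.0358. The call was lost without any of the 3 5xFAD replicates, WT replicate 2 or WT replicate 3 (adjusted p 0.0558 to 0.152). The same subtraction left a log2 fold change of 0.04 (adjusted p 0.854). The call was also lost with library size alone (0.0564), a filter of 1 count (0.0716) or a replicate block (0.0507), and when the 3 libraries high in ribosomal RNA were dropped (0.0913).

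Bbs12 (chromosome 3, 37312554 to 37321453, plus strand) belongs with Mkks and Bbs10 to the chaperonin-like proteins that help form the BBSome core. It measured 43.8, 42.3 and 36.5 CPM in 5xFAD and 58.1, 58.7 and 43.3 CPM in WT retina at 1 month. The groups overlapped, because WT replicate 3 lay below the highest 5xFAD library. The log2 fold change was -0.38 ± 0.14 with an adjusted p of 0.0489, and leaving out any library other than WT replicate 3 lost the call (adjusted p 0.0685 to 0.199). The call held in 3 of 15 alternatives, among them the subtraction of length and GC (-0.40, 0.0344), and was lost with DESeq2 (0.0514), DESeq2 size factors (0.0582), both other filters (0.0666 and 0.0592), a replicate block (0.0649), only the 6 libraries compared (0.0578) and without the libraries high in ribosomal RNA (0.131).

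**Figure D2:**
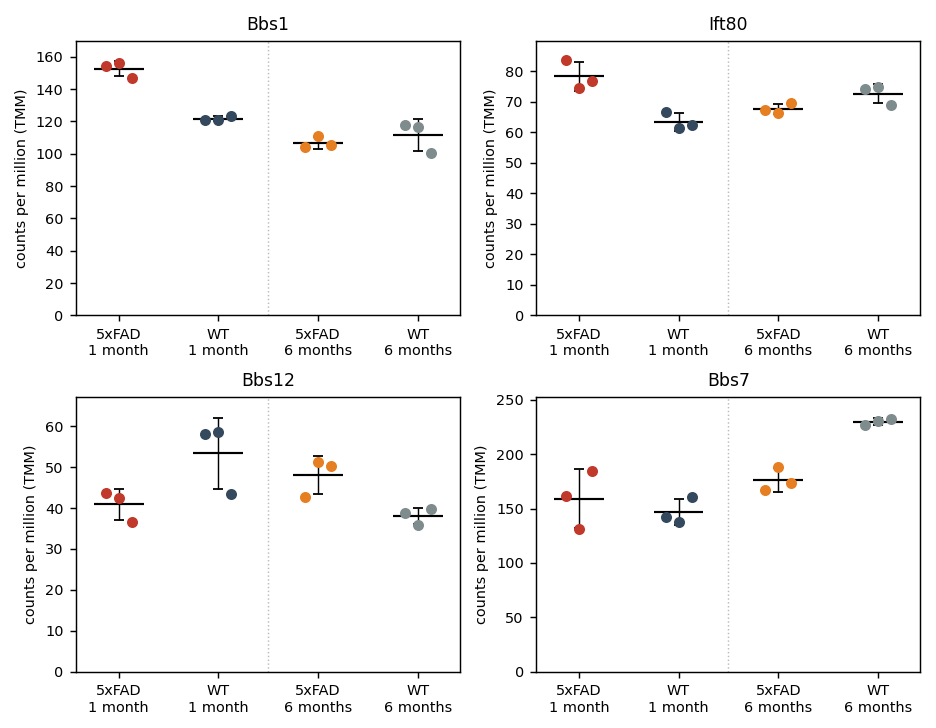
CPM after TMM scaling (vertical axes, from 0) of Bbs1, Ift80, Bbs12 and Bbs7 in each library; points are libraries, the horizontal bar is the group mean and the whisker 1 SD (n = 3). The 5xFAD libraries at 1 month hold the highest values of Bbs1, and Bbs7 stands highest in WT at 6 months, between 227 and 233 CPM.

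Below the threshold at 1 month, 4 genes followed with log2 fold changes of -0.32 (Ift20, adjusted p 0.073), -0.32 (Bbs5, 0.0809), -0.24 (Arl6, 0.0811) and -0.26 (Bbs2, 0.0836). An unadjusted p below 0.05 was reached by 8 of the 30 genes. The 19.6% of all genes given above is a share at adjusted p, so it is no background for this count. The share of all genes at the unadjusted value is not given here. The IFT-A genes Ift122 and Ift140, which carry cargo back from the tip, measured 0.22 and 0.23 without passing the test, and Ift43, also of IFT-A, measured -0.47 ± 0.21 (adjusted p 0.123). Within the IFT-B core the log2 fold changes ran from -0.40 (Ift27) to 0.23 (Ift52). Among BBSome subunits the median was -0.15, with 1 of 7 called, and neither Rpgrip1 (0.10, adjusted p 0.509) nor Cep290 (0.15, 0.379) passed.

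The difference at 1 month shifted with transcript length, both in these genes and in the medians of all genes. The 9 members with transcripts under 2000 nt all measured below 0, with a median log2 fold change of -0.29, against -0.33 over the 5175 genes of that length. The 6 members of 4000 nt or more all measured above 0, with a median of 0.19, against 0.29 over 4387 genes. The 15 members between 2000 and 4000 nt had a median of 0.08, against -0.05. Bbs1 and Ift80 belong to the long band and Bbs12 to the middle band. After length and GC were subtracted, 2 members were called at 1 month, both lower, of which 1 was also called before: Bbs12, and Cep290 at -0.37 (adjusted p 0.00467), whose sign turned from 0.15.

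**Figure D3:**
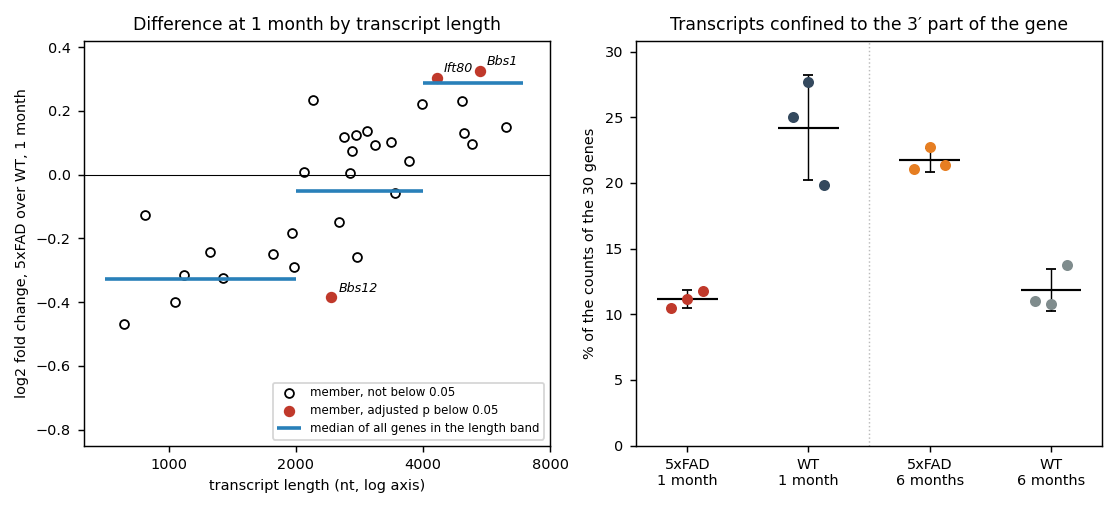
Left: log2 fold change of 5xFAD over WT at 1 month against transcript length (log axis) for the 30 genes, with blue bars at the median of all genes in each length band; short members lie below 0 and long members above, as the bars do. Right: percentage of the 30 genes' counts that fell on transcripts confined to the last 50% of their gene, per library, with group mean and SD (n = 3); 5xFAD at 1 month and WT at 6 months are low, and the other groups lie between 19.8% and 27.7%.

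At 6 months, Bbs7, a subunit of the BBSome core, was lower in 5xFAD than in WT retina by a log2 fold change of -0.38, and no other member passed. The 1 call among 30 (3.33%) compares with 6.38% of all genes, 3.89% lower. The median log2 fold change was 0.01, against 0.00 over all genes, and 2 members did not overlap between the genotypes, against a background of 24.2%. An unadjusted p below 0.05 was reached by 3 members. The 6.38% of all genes is a share at adjusted p, so it is no background for this count. The share of all genes at the unadjusted value is not given here. After length and GC were subtracted Bbs7 remained called (-0.40, adjusted p 0.0142) and Rpgrip1 was called as well (0.27, 0.0159). No member was called at both ages.

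Bbs7 (chromosome 3, 36573142 to 36613477, minus strand) measured 167, 188 and 174 CPM in 5xFAD and 227, 231 and 233 CPM in WT retina at 6 months. Every 5xFAD library lay below every WT library. The log2 fold change was -0.38 ± 0.11 with an adjusted p of 0.0297. The call was lost without 5xFAD replicate 1 (adjusted p 0.0908), WT replicate 1 (0.0741) or WT replicate 2 (0.0929), and when the 3 libraries high in ribosomal RNA were dropped (0.177). At 1 month Bbs7 had measured 162, 131 and 185 CPM in 5xFAD and 142, 138 and 161 CPM in WT, with overlap and an adjusted p of 0.486.

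Bbs12, lower in 5xFAD at 1 month, measured 42.8, 51.2 and 50.3 CPM in 5xFAD and 38.7, 35.9 and 39.7 CPM in WT retina at 6 months. The 3 5xFAD libraries lay above the 3 WT libraries, but the log2 fold change of 0.34 ± 0.13 did not pass (adjusted p 0.142). Bbs1 at 6 months measured 104, 111 and 105 CPM in 5xFAD and 118, 117 and 100 CPM in WT, and Ift80 measured 67.1, 66.4 and 69.4 CPM in 5xFAD and 74.0, 74.7 and 69.0 CPM in WT. Both genes overlapped between the genotypes, with log2 fold changes of -0.06 and -0.10.

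By role, the median log2 fold changes at 6 months were 0.00 for IFT-A, -0.01 for the IFT-B core, 0.08 for peripheral IFT-B, -0.04 for the BBSome subunits, 0.28 for the chaperonin-like proteins, -0.01 for the GTPases and 0.03 for the transition zone. No role other than the BBSome held a called gene. Ift140 of IFT-A measured 46.5, 53.2 and 42.4 CPM in 5xFAD and 65.6, 60.5 and 51.2 CPM in WT, with overlap (-0.32 ± 0.15, adjusted p 0.211). Mkks, a chaperonin-like protein, measured 38.7, 27.2 and 48.4 CPM in 5xFAD and 32.1, 32.8 and 29.5 CPM in WT, and its 3 5xFAD libraries spread more widely than the WT libraries (0.28 ± 0.17, adjusted p 0.36). Cep290 measured 170, 212 and 221 CPM in 5xFAD and 235, 215 and 181 CPM in WT (-0.07, adjusted p 0.795).

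**Figure D4:**
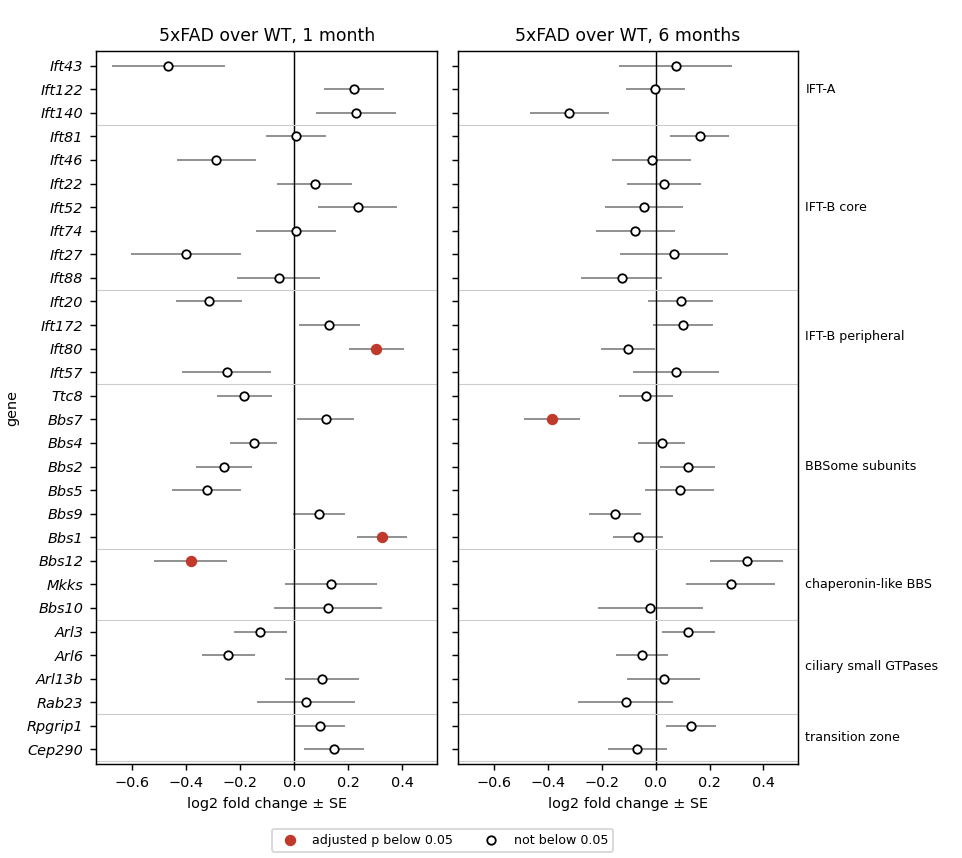
Log2 fold change of 5xFAD over WT (horizontal axes, with approximate SE) of the 30 genes at 1 month (left) and 6 months (right), grouped by role; filled red points have an adjusted p below 0.05. Bbs1, Ift80 and Bbs12 pass at 1 month and Bbs7 at 6 months, and most other intervals of 1 SE at 6 months lie close to or across 0.

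The difference between the genotypes itself changed with age for the same 4 genes: 4 of 30 (13.3%) passed the interaction test, against 25% of all genes. The interaction, the log2 fold change at 6 months minus that at 1 month, was 0.72 ± 0.19 for Bbs12 (adjusted p 0.0074), -0.50 ± 0.15 for Bbs7 (0.0163), -0.39 ± 0.13 for Bbs1 (0.0302) and -0.41 ± 0.14 for Ift80 (0.0388). After length and GC were subtracted, the interactions of Bbs1 (-0.02, adjusted p 0.934) and Ift80 (-0.04, 0.877) were near 0, those of Bbs12 and Bbs7 remained called, and Cep290 (0.55, 0.00169), Rpgrip1 (0.45, 0.00185) and Bbs2 (0.38, 0.0367) were called as well. That of Ift80 was also lost with a replicate block (0.0534) and a filter of 1 count (0.0591), and that of Bbs7, Bbs1 and Ift80 when the 3 libraries high in ribosomal RNA were dropped (0.092, 0.102 and 0.21). That of Bbs12 held without any single library. That of Bbs7 was lost without 5xFAD replicate 3 at 1 month (0.0719). That of Bbs1 was lost without 5xFAD replicate 1, 5xFAD replicate 2 or WT replicate 2 at 1 month, or WT replicate 1 or 2 at 6 months (0.055 to 0.0663). That of Ift80 was lost without 5xFAD replicate 1 or 3 or WT replicate 2 at 1 month, or 5xFAD replicate 2 or WT replicate 1 or 2 at 6 months (0.0595 to 0.103).

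Between 6 and 1 month in WT retina, Bbs7 rose by 56.6%, and Bbs12 and Rpgrip1 fell; these were 3 of 30 members (10%), against 10.5% of all genes, 6.01% higher and 4.49% lower. The median log2 fold change over the 30 genes was 0.12, against -0.01 over all genes. Bbs7 measured 0.65 ± 0.11 on the log2 scale (adjusted p 0.000446), and the call held in every alternative run for it. Bbs12 measured -0.49 ± 0.13 (adjusted p 0.0215) and lost its call without replicate 1 or 2 of either age (0.0926 to 0.156), and when the libraries high in ribosomal RNA were dropped (0.0746).

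In 5xFAD retina 9 of 30 members (30%) were called between 6 and 1 month, against 23.2% of all genes, 10.8% higher and 12.4% lower. The 6 that rose were the BBSome subunits Bbs2 (0.43), Bbs4 (0.31) and Bbs5 (0.42), the GTPases Arl6 (0.41) and Arl3 (0.38), and the peripheral IFT-B subunit Ift57 (0.46). The 3 that fell were Bbs1 at -0.52 ± 0.09 (adjusted p 0.000322), the IFT-A subunit Ift122 at -0.36 and Rpgrip1 at -0.33. The median log2 fold change was 0.13, against 0.03 over all genes. Here the long and short transcripts again parted: members under 2000 nt had a median of 0.25 and members of 4000 nt or more one of -0.23, against 0.34 and -0.30 over all genes of those lengths. After length and GC were subtracted, 4 members were called, of which 2 (Bbs2 and Bbs4) were among the 9. The other 7 were lost, at adjusted p of 0.0534 for Bbs1, 0.146 for Arl6 and 0.58 for Arl3.

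Bbs2, a BBSome core subunit, measured 131, 143 and 133 CPM at 6 months against 102, 91.6 and 109 CPM at 1 month in 5xFAD retina (0.43 ± 0.10, adjusted p 0.00422). Arl6, which brings the BBSome to membranes, measured 126, 128 and 142 CPM at 6 months against 100.4, 94.4 and 102 CPM at 1 month (0.41 ± 0.10, adjusted p 0.00341). Arl3 measured 183, 211 and 209 CPM at 6 months against 163, 154 and 147 CPM at 1 month (0.38 ± 0.10, adjusted p 0.00674). In each of these genes all 3 libraries of the older group lay above all 3 of the younger. Bbs4, whose protein holds tetratricopeptide repeats, ran from 164 to 168 CPM at 6 months and from 132 to 139 CPM at 1 month. Ift122, which lies in the core of the IFT-A complex, ran from 54.0 to 62.3 CPM at 6 months and from 67.8 to 77.8 CPM at 1 month, with every older library below every younger one. In WT retina the same genes measured 0.05 (Bbs2), 0.22 (Arl6), 0.13 (Arl3), 0.13 (Bbs4) and -0.14 (Ift122) between these ages without passing the test. None of them passed the interaction test in the main fit. After length and GC were subtracted, Bbs2 passed it (0.38, adjusted p 0.0367) and the others did not. For Arl6, Arl3, Bbs4 and Ift122 the change with age is thus not shown to differ between the genotypes. For Bbs2 the result depends on that subtraction.

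Leaving out single 5xFAD libraries kept the calls of Bbs1, Bbs2, Arl3 and Arl6 with age. The call of Bbs4 was lost without replicate 2 or 3 at 1 month (adjusted p 0.055 and 0.0566), and that of Bbs5 without replicate 1 or 3 at 1 month or replicate 1 at 6 months (0.0667 to 0.179). The call of Ift122 was lost without replicate 1 or 3 at 1 month or replicate 3 at 6 months (0.0502 to 0.0863), that of Ift57 without replicate 1 or 3 at 1 month or replicate 2 or 3 at 6 months (0.0706 to 0.174), and that of Rpgrip1 without replicate 3 at 1 month (0.0525). Ift57 also lost its call with a filter of 1 count (0.0771), a replicate block (0.0512) and only the 6 libraries compared (0.0895). After length and GC were subtracted its adjusted p was 0.235. When the 3 libraries high in ribosomal RNA were dropped, Bbs1, Arl6, Arl3 and Ift57 remained called, and Bbs2 (0.0543), Bbs4 (0.0707), Bbs5 (0.222) and Ift122 (0.0539) did not.

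Rpgrip1 (chromosome 14, 52110704 to 52163546, plus strand) had a lower count at 6 than at 1 month in both genotypes. It measured 1440, 1372 and 1419 CPM at 6 months against 1827, 1669 and 1837 CPM at 1 month in 5xFAD retina, and 1418, 1368 and 1072 CPM at 6 months against 1755, 1677 and 1553 CPM at 1 month in WT retina. The older libraries lay below the younger ones in each genotype. The log2 fold change was -0.33 in 5xFAD (adjusted p 0.0112) and -0.37 in WT (adjusted p 0.012), and the WT call was lost without WT replicate 1 at 1 month (0.0828). In 5xFAD the direction depends on the scale: mean TPM was 1286 at 6 months and 1183 at 1 month, and after length and GC were subtracted the log2 fold change was -0.05 (adjusted p 0.671), against -0.50 (2.84e-05) in WT. The 5xFAD call was also lost when the 3 libraries high in ribosomal RNA were dropped (0.142). Over the 5 comparisons, 18 of the 30 genes were called in none.

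Promoter windows of the BBS genes called in a genotype comparison are printed below as the 150 bases before the annotated start (RefSeq on GRCm38.p6, 5′ to 3′ on the gene's strand), since these are the members whose levels differed. Capitals mark the only full match among the 27 matched members to GTTNCC followed after any 2 bases by GGNAAC, the palindromic X-box that RFX factors, regulators of ciliary genes, are known to bind.
Bbs1, chr19:4906628-4906777, minus strand: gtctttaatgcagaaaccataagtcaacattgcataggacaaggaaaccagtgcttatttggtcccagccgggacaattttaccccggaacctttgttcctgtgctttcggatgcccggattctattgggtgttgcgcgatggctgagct
Bbs7, chr3:36613390-36613539, minus strand: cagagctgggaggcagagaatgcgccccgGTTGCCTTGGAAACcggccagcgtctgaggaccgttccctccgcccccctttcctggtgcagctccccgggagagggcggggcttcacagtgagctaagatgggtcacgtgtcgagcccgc
Bbs12, chr3:37312404-37312553, plus strand: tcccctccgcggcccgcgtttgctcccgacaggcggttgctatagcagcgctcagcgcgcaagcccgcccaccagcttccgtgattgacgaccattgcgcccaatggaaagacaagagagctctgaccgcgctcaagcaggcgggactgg
The search covered both strands of 300 bases, 250 before and 50 after each start, and 143 of 27025 genes (0.529%) held a match. Its 6-letter part GTTGCC was found in 9 of the 27 members (33.3%) and in 14.1% of all genes, and TAATCC, the motif of the photoreceptor factor CRX, in 2 members (7.41%), Bbs1 and Rpgrip1, and in 8.14% of all genes. These matches describe the letters only, and Ift122, Ift80 and Ift81 are not in the promoter table.

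The annotation holds 214 transcripts of the 30 genes, of which 131 had enough counts to be tested: 71 coding, 41 of the retained-intron class, 11 processed and 8 subject to nonsense-mediated decay. The count of each transcript is an estimate that divides a gene's reads over its isoforms. The p-values drawn from these counts do not include the error of that division. At 1 month 6 of 131 transcripts (4.58%) were called, against 2.52% of all transcripts. In 5xFAD retina 3 of them were higher, against 1.6% of all transcripts, and 3 lower, against 0.922%. The median log2 fold change of the 131 was 0.00, against 0.05 over all transcripts. The 6 belong to Rpgrip1, Ift81, Rab23 and Cep290, none of which was called as a whole gene between the genotypes, and 4 of them are of the retained-intron class. With a replicate block Rab23-208 and Rpgrip1-218 remained called, and when the 3 libraries high in ribosomal RNA were dropped Rab23-208 was the only 1 of the 6 still called.

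Transcript Rpgrip1-218, 7878 nt long, keeps introns 14 (4491 bases) and 17 (126 bases) of the 25-exon coding transcript Rpgrip1-201. The splice sites of intron 14 are shown because they bound most of the sequence that separates this transcript from the coding one. They are given as 50 bases on the plus strand of GRCm38 (GENCODE M21 transcripts), with the first or last 2 intron bases in capitals.
Rpgrip1 intron 14, 5′ end, chr14:52141216-52141265: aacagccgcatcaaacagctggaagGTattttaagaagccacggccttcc
Rpgrip1 intron 14, 3′ end, chr14:52145707-52145756: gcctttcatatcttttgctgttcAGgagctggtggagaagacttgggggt
Intron 14 ends in a pyrimidine-rich stretch.

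Rpgrip1-218 measured 1216, 1062 and 1223 CPM in 5xFAD and 671, 501 and 668 CPM in WT retina at 1 month. Its share of the gene was 65.5%, 63.8% and 65.4% in 5xFAD and 37.7%, 29.8% and 43.5% in WT. All 3 5xFAD libraries lay above all 3 WT libraries, with a log2 fold change of 0.93 ± 0.16 and an adjusted p of 0.0168. The call was lost without 5xFAD replicate 1, 5xFAD replicate 3 or WT replicate 2 (adjusted p 0.0579 to 0.069) and after length and GC were subtracted (0.0754). Its log2 fold change ran from 0.75 to 1.00 with single libraries left out. Over all alternatives it ran from 0.37 to 1.00, so its size also depends on the processing. At 6 months Rpgrip1-218 measured 545, 523 and 586 CPM in 5xFAD and 918, 919 and 630 CPM in WT, where WT replicate 3 stood apart from the other WT libraries, and the difference did not pass (adjusted p 0.15).

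Among the other Rpgrip1 transcripts 2 were called at 1 month, 1 in each direction. Rpgrip1-215, from the first 50% of the gene, measured 45.1, 35.6 and 45.1 CPM in 5xFAD and 17.2, 10.3 and 15.1 CPM in WT retina at 1 month (1.56 ± 0.28, adjusted p 0.0207). Rpgrip1-217, 4 exons at the 3′ end, measured 198, 199 and 215 CPM in 5xFAD and 433, 474 and 279 CPM in WT (-0.95 ± 0.19, adjusted p 0.0312). Neither overlapped between the genotypes. The call of Rpgrip1-215 was lost without any library but WT replicate 1 (0.0554 to 0.0917), and that of Rpgrip1-217 without any library but WT replicate 3 (0.0877 to 0.114). At 6 months Rpgrip1-217 measured 308, 322 and 381 CPM in 5xFAD and 166, 156 and 219 CPM in WT, a log2 fold change of 0.90 that did not pass (adjusted p 0.0786). Of the 1733 bases of Rpgrip1-217, 1057 overlap exons of Supt16 on the opposite strand, and the preparation did not keep strand, so reads of both genes cannot be told apart there; Rpgrip1-218 has no such overlap.

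The 2 transcripts that were present in one genotype and at 0 in the other begin inside an intron, and the sites that follow are printed because they mark where each joins the coding transcript (last 2 intron bases in capitals, 5′ to 3′ on the gene's strand). Ift81-203 begins 96 bases before the end of intron 14 of Ift81-201 (19 exons), and Rab23-208 begins 174 bases before the end of intron 4 of Rab23-201 (8 exons).
Ift81 intron 14, 3′ end, chr5:122560721-122560770, minus strand: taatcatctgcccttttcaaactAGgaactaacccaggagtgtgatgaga
Rab23 intron 4, 3′ end, chr1:33734677-33734726, plus strand: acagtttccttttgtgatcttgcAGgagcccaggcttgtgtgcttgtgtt
Ift81, which with Ift74 binds tubulin in the IFT-B core, had 0, 0 and 0 CPM of Ift81-203 in 5xFAD and 10.8, 20.8 and 11.4 CPM in WT retina at 1 month. Against a floor of 3 counts per library that is at least 53.4-fold lower in 5xFAD, a bound for counting noise alone. This bound leaves out error in dividing the gene's reads over its isoforms. The adjusted p was 0.0407, a call lost on leaving out any of the 6 libraries (0.0691 to 0.117). Ift81-203 measured 10.96, 31.1 and 10.4 CPM in 5xFAD and 0, 0 and 0.617 CPM in WT at 6 months, without passing the test (adjusted p 0.14).
Rab23-208 had 4.06, 3.21 and 5.85 CPM in 5xFAD and 0, 0 and 0 CPM in WT retina at 1 month (adjusted p 0.00907). The call held without any 1 of the 6 libraries. Against the same floor the level was at least 16.9-fold higher in 5xFAD, again for counting noise alone. At 6 months Rab23-208 measured 2.80, 7.74 and 3.41 CPM in 5xFAD and 1.58, 2.26 and 3.58 CPM in WT, with overlap.

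Cep290-205, a processed transcript of the last part of Cep290 that was picked out after its values were seen, measured 3.71, 2.48 and 0 CPM in 5xFAD and 58.4, 58.0 and 38.0 CPM in WT retina at 1 month (adjusted p 0.0413, lost without any library but 5xFAD replicate 3, at 0.063 to 0.138). It overlaps exons of another gene on the opposite strand over 502 of its 2738 bases. At 6 months no transcript of the 131 was called, against 0.488% of all transcripts, and 3 were called among those with a mean of at least 10 CPM. Of the 131, 22 had an unadjusted p below 0.05, and the share of all transcripts below that value is not given here. The smallest adjusted p were those of Rpgrip1-211 (1.84 ± 0.35, adjusted p 0.0569), Rpgrip1-214 (2.54 ± 0.49, 0.0587) and the coding transcript Bbs7-203 (-0.49 ± 0.10, 0.0777). The interaction of genotype and age was called for 16 of the 131 transcripts (12.2%), against 6.05% of all transcripts. Rpgrip1 gave more of the 16 than any other gene: Rpgrip1-209, Rpgrip1-210, Rpgrip1-211, Rpgrip1-212, Rpgrip1-214, Rpgrip1-215, Rpgrip1-217 and Rpgrip1-218. These isoforms divide the reads of the same gene, so they are not independent results.

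**Figure D5:**
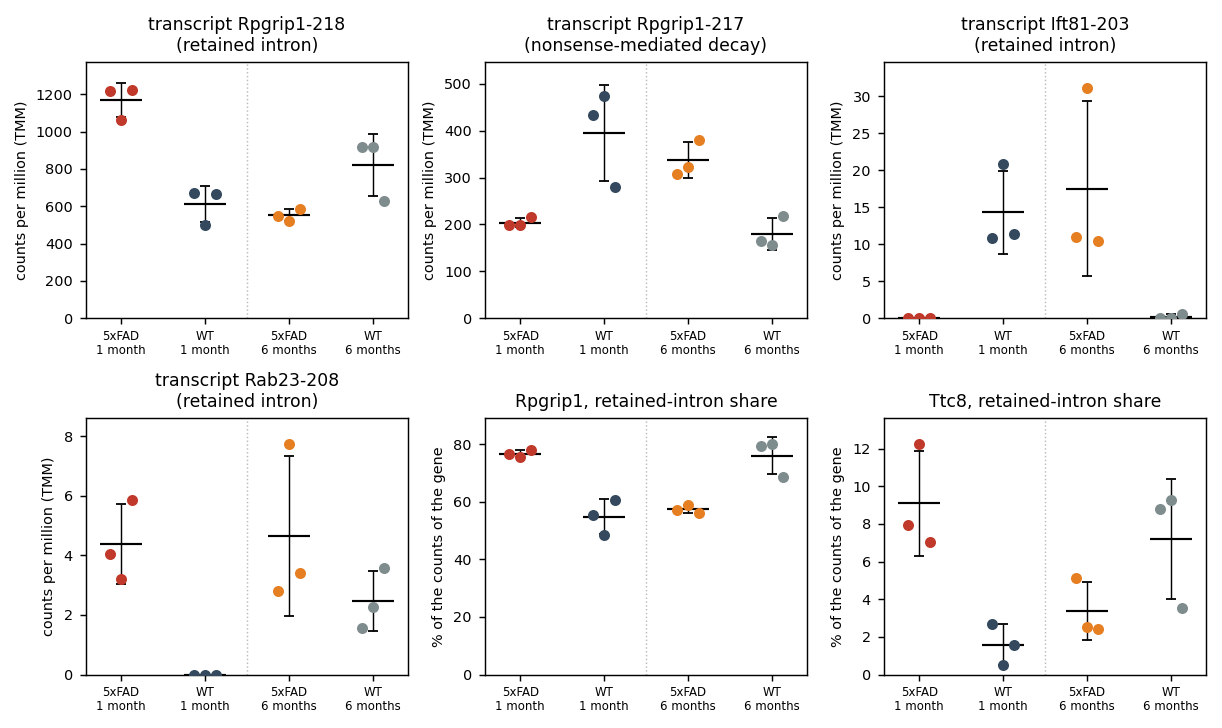
CPM after TMM scaling of Rpgrip1-218, Rpgrip1-217, Ift81-203 and Rab23-208, and the retained-intron share of Rpgrip1 and Ttc8 in percent of the gene's counts (vertical axes, from 0), per library with group mean and SD (n = 3). Rpgrip1-218 and the 2 shares are high in 5xFAD at 1 month and in WT at 6 months; Ift81-203 is at or near 0 in those same groups.

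The retained-intron share of a gene, the percentage of its counts on transcripts of that class, could be tested in 20 of the 30 genes, and 3 were called at 1 month, against 2.89% of the 4769 genes tested, 1.51% higher and 1.38% lower. The share of Rpgrip1 and of Ttc8, a BBSome subunit with tetratricopeptide repeats, was higher in 5xFAD retina, and that of Ift81 was lower. Of the 20 genes, 16 measured above 0, with a median log2 odds ratio of 0.86 against 0.36 over all genes. Rpgrip1 alone held 80.0% to 90.9% of the retained-intron counts of the 30 genes. Over the whole library the retained-intron share was 5.86% to 6.82% in all 12 libraries.

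The share of Rpgrip1 was 76.7%, 75.5% and 77.9% in 5xFAD and 55.3%, 48.5% and 60.7% in WT retina at 1 month, or 76.7% ± 1.24 and 54.8% ± 6.08 (SD, n = 3 each). The groups did not overlap, and the log2 odds ratio was 1.44 ± 0.25 with an adjusted p of 0.0188 in the edgeR fit on paired counts. Leaving out any 5xFAD replicate or WT replicate 2 lost the call (0.0581 to 0.0769). The share of Ttc8 was 7.95%, 12.3% and 7.06% in 5xFAD and 2.68%, 0.511% and 1.56% in WT (2.79 ± 0.65, adjusted p 0.0479). The share of Ift81 was 0%, 0.693% and 1.42% in 5xFAD and 16.5%, 30.6% and 17.9% in WT (adjusted p 0.0334). Neither of these overlapped between the genotypes; the call of Ttc8 was lost without any library but WT replicate 1 (0.0812 to 0.145) and that of Ift81 on leaving out any of the 6 libraries (0.0617 to 0.103). None of the 3 was called when the 3 libraries high in ribosomal RNA were dropped (0.0853, 0.0951 and 0.101 for Rpgrip1, Ift81 and Ttc8), and limma on the logit did not call Rpgrip1 (0.0521). The retained-intron counts of Ift81 in WT at 1 month were 127, 231 and 135, and those of Ift81-203 ran from 127 to 231. The Ift81 share and Ift81-203 thus rest on largely the same reads and are not separate results. Of intron 14 that transcript holds 96 bases, not the whole.

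At 6 months none of the 20 shares was called in edgeR, against 0.189% of all genes. Of the 20, 4 had an unadjusted p below 0.05, against 634 of the 4769 genes tested. Limma on the logit of the share called 1 of the 20. Rpgrip1 measured 57.2%, 58.7% and 56.0% in 5xFAD and 79.3%, 80.0% and 68.6% in WT retina, the reverse order of 1 month without overlap (-1.26 ± 0.25, adjusted p 0.0766). The interaction of genotype and age was called in 4 of 20 shares, against 7.74% of all genes: Rpgrip1 at -2.70 ± 0.36 (adjusted p 0.00293), Ift81 (0.00406), Bbs4 (0.00523) and Ttc8 (0.0264). The first 3 held without any single library, and that of Ttc8 was lost without 5xFAD replicate 1 or 2 at 1 month, 5xFAD replicate 2 at 6 months or WT replicate 1 or 2 at 6 months (0.052 to 0.0816). Bbs4, whose retained transcript is rare, had shares of 2.00%, 0.900% and 1.56% in 5xFAD and 0.168%, 0.352% and 0.472% in WT at 1 month. At 6 months its shares were 0%, 0% and 0.0845% in 5xFAD and 0.535%, 1.61% and 0.984% in WT.

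The share of counts on transcripts confined to the last 50% of a gene took the mirrored order over the 4 groups. Among the 30 genes it was 11.1% ± 0.667 in 5xFAD and 24.2% ± 4.00 in WT at 1 month, and 21.7% ± 0.894 in 5xFAD and 11.9% ± 1.62 in WT at 6 months. Without Rpgrip1 it was 3.13% in 5xFAD and 6.97% in WT at 1 month, and 7.61% in 5xFAD and 4.04% in WT at 6 months. Over all genes it was 4.49% ± 0.08 in 5xFAD and 6.66% ± 0.49 in WT at 1 month, and 6.42% ± 0.19 in 5xFAD and 4.90% ± 0.38 in WT at 6 months (SD, n = 3 each). Of the transcripts called at 1 month, Ift81-203, Cep290-205 and Rpgrip1-217 are confined to the last 50% and were lower in 5xFAD. Rab23-208 is also confined to the last 50% but was higher in 5xFAD. Rpgrip1-215, from the first 50%, and Rpgrip1-218, which spans the gene, were higher. The part of this composition in the transcript and retained-intron results was not tested.

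Per length, the level of Rpgrip1 took the opposite order to its count at 1 month and the same order at 6 months. At 1 month Rpgrip1 had 1183 ± 75.6 TPM in 5xFAD and 1606 ± 230 TPM in WT retina, while in CPM it had 1778 ± 94.5 in 5xFAD and 1662 ± 102 in WT. At 6 months it had 1286 ± 90.8 TPM in 5xFAD and 835 ± 81.9 TPM in WT, and 1410 ± 34.9 CPM in 5xFAD and 1286 ± 187 CPM in WT (SD, n = 3 each). TPM here were computed from transcript counts and annotated lengths, and were not tested. They include Rpgrip1-217, of whose 1733 bases 1057 overlap exons of Supt16, and other Rpgrip1 transcripts with such an overlap. Reads of both genes cannot be told apart there, and their part in this order was not tested.

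Beyond the 30 genes, 85 further ciliary genes in 6 lists were examined, of which 82 were tested, and 21 were called at 1 month (25.6%), 11 higher and 10 lower in 5xFAD, against 19.6% of all genes, 10.7% higher and 8.91% lower. At 6 months 5 were called (6.1%), 2 higher and 3 lower, against 6.38% of all genes. The part of transcript length and GC in the calls of these 6 lists was not tested. Of 14 genes of the IFT motors, 4 rose and 2 fell at 1 month: the kinesin-2 subunit Kif3c measured 0.49 (adjusted p 0.00257), the heavy chain of the IFT dynein, Dync2h1, measured 0.66 (0.00906), and the dynein light chain Dynlt1b measured -1.37 (2.48e-05). At 6 months Kif3a, the kinesin-2 motor subunit, averaged 42.9 CPM in 5xFAD and 73.2 CPM in WT, a log2 fold change of -0.77 (adjusted p 0.000956). Among 11 other IFT subunits, Wdr19 of IFT-A rose (0.37, 0.0441) and Hspb11 of IFT-B fell (-1.03, 0.0231) at 1 month. Of 10 BBSome partners, Lztfl1, which controls BBSome movement, rose (0.47, 0.00938).

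The axoneme and outer segment list had 4 of 11 tested genes higher and 1 lower at 1 month, led by Cdhr1, a cadherin of the outer segment base (0.55, adjusted p 2.95e-05), and Rp1l1, a photoreceptor microtubule protein (0.52, 0.000152). Among 28 further transition zone genes none rose and 3 fell at 1 month, including Tctn1 (-0.54, adjusted p 0.00232) and Iqcb1 (-0.60, 0.0227). Over all genes tested, 10.7% were higher and 8.91% lower at 1 month. Of 8 carriers of lipid-modified cargo, Unc119, which moves transducin, averaged 1325 CPM in 5xFAD and 1701 CPM in WT retina at 1 month (-0.36, 0.016), and Rp2, which acts on Arl3, rose (0.74, 0.012). No gene of the BBSome partners, other IFT subunits or carriers was called at 6 months.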

How the data were processed

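RNA of 12 libraries was used. The authors deposited expected counts per gene and per transcript, without normalisation; the tools listed, per the submitters' processing notes, include RSEM 1.3.3, STAR 2.7.1a and Trim Galore 0.6.6, and the build is GRCm38.p6, while the annotation is not given in the sources used here. Per the labels' protocols, libraries came from an unstranded poly-A kit.

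Identifiers were matched to GENCODE M21 (55227 genes, 141469 transcripts), which gave names, positions, lengths and the 21843 retained-intron transcripts. Expected counts were rounded and fitted in R 4.3.3 with edgeR 4.0.16 (quasi-likelihood, TMM, robust, filterByExpr; limma 3.58.1 and the data.table package, version 1.17.8) over all 16233 genes or 45326 transcripts kept, with all 12 libraries in 4 groups and 8 residual degrees of freedom; calls are at a Benjamini-Hochberg adjusted p below 0.05. An exact permutation test of 3 against 3 cannot go below p = 0.1 and was not used. Retained-intron shares were fitted on paired counts per gene with the library as a factor, for means of at least 10 counts. CPM use TMM factors, except sums over marker lists. TPM use annotated lengths. A transcript was placed in the first or last 50% of its gene's longest coding transcript with an edge of 10%, which could be done for 101588 transcripts of 21934 genes. The scripts were tested on simulated data.

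Members and lists were chosen with earlier results of these data known. Any member may be named; of other ciliary lists up to 3 genes, and of transcripts and shares the 5 with the smallest p, per genotype comparison. Alternatives were other scalings and filters, DESeq2 1.42.0, only the libraries compared, a replicate block, removal of length and GC trends (splines with 4 degrees of freedom), limma on the logit (constant 0.5), a minimum of 10 CPM or 50 counts, and each library left out; leaving out the 3 libraries richest in ribosomal RNA, trend removal for transcripts, and both interaction results for transcripts and shares were added after the data were seen. Descriptions and plots used Python 3.11.15, pandas 2.3.3, numpy 2.4.6 and matplotlib 3.10.9. Gene counts of replicates differed by more than sampling noise (chi-square over its degrees of freedom from 4.05 to 26.7), so all were counted separately. Some splice-site sequences are not reported here.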

Additional observations from a re-analysis of the deposited data

Results flagged for a closer look

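Each result here is listed because the genotype difference was not the same at 6 months as at 1 month, by the interaction test of edgeR with adjustment over all genes, transcripts or shares. As whole genes these were Bbs12 (adjusted p 0.0074), Bbs7 (0.0163), Bbs1 (0.0302) and Ift80 (0.0388). Once length and GC were subtracted, those of Bbs1 (-0.02, adjusted p 0.934) and Ift80 (-0.04, 0.877) were no longer called, and 5 members were called, of which 2 were called before. Of the 16 transcripts called, those named in the report were Rpgrip1-217 (0.00444), Rpgrip1-218 (0.00444), Rpgrip1-211 (0.00654), Rpgrip1-214 (0.00671), Ift81-203 (0.00951), Rab23-208 (0.00985), Rpgrip1-215 (0.0105), Cep290-205 (0.0416) and Bbs7-203 (0.0498). Of retained-intron shares they were Rpgrip1 (0.00293), Ift81 (0.00406), Bbs4 (0.00523) and Ttc8 (0.0264). The Ift81 share and Ift81-203 rest on largely the same reads. The interactions of Bbs12, of Rpgrip1-217 and Rpgrip1-214 and of the shares of Rpgrip1 and Ift81 stayed called in every alternative run for them, while that of Bbs7-203 was lost on leaving out any of the 12 libraries (0.053 to 0.18) and that of Cep290-205 on leaving out any but 1 (0.0557 to 0.128). Interaction calls made up 12.2% of the member transcripts tested, against 6.05% of all transcripts. Many of these calls were isoforms of Rpgrip1, which divide the reads of the same gene and are not independent.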

How the results depend on the processing

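Replicate numbers are shared between groups, but same-numbered libraries did not deviate together (correlations from -0.0852 to 0.0623, and 2, 0, 2 and 3 of 6 libraries correlated best with their own number), so the numbers are not taken as pairs. With the replicate block, members called fell to 1 gene, 2 transcripts and, with limma on the logit, 0 shares at 1 month. With a filter of 1 count 1 gene was called at 1 month. With the length and GC trend removed, gene counts were 2 at 6 months, 5 for age in WT, 4 for age in 5xFAD and 5 for the interaction. Without the 3 libraries richest in ribosomal RNA they were 1 at 1 month, 0 at 6 months, 5 for age in 5xFAD and 1 for the interaction; transcripts were 2 at 1 month and 2 for the interaction, and shares 0 at 1 month and 2 for the interaction. At 6 months, 3 transcripts passed with a minimum of 10 CPM, and 2 shares with a minimum of 50 counts or 1 with limma on the logit. The percentages of all genes, transcripts or retained-intron shares called under these alternatives, or with a library left out, are not given here. These counts therefore describe the members alone and are not set against a background.

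Leaving out each library in turn, genes called ranged from 0 to 2 at 1 month, 0 to 1 at 6 months, 1 to 3 for age in WT, 4 to 9 for age in 5xFAD and 2 to 6 for the interaction. Transcripts ranged from 1 to 5 at 1 month, 0 to 2 at 6 months and 8 to 14 for the interaction, and shares from 0 to 2, 0 to 2 and 3 to 5. No called result turned its direction under these alternatives. In mean TPM, which was not tested, Rpgrip1 in 5xFAD was higher at 6 than at 1 month, against its called fall in CPM. Cep290, not called at 1 month, changed sign once length and GC were subtracted. Of the values of single members under alternatives, 494 kept their side of the threshold and 250 lost it. Depth limits the rarest features: the least counted member, Ift27, had 120 counts in its lowest library, and transcripts at 0 are bounded only by 3 counts. That bound leaves out error in dividing reads over isoforms.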
